A study of Drosophila melanogaster with 9 samples.

Results

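RNA of whole 3rd instar *y w* larvae, taken 4 h after the middle of the body was pinched with forceps, was set against RNA of untreated larvae of the same strain and stage. The comparison held the 3 pinching arrays and the 3 untreated arrays, 6 of the 9 arrays of the series, and covered all 18769 probe sets left after the array's own control probe sets were dropped. The 3 other arrays came from larvae taken 4 h after clean injury, a prick with a tungsten needle, and also entered the fit. All larvae were of 1 strain with no further mutation, and no uninjured larvae that had been handled and kept for 4 h were analysed here, so that the response to pinching, the handling, the change of food and the passing of 4 h cannot be told apart. Every value below is a log2 intensity as the authors deposited it (1 unit is a 2-fold difference), and a change is the pinching mean minus the untreated mean. Array medians ran between 4.94 and 5.08, and a signal near or below them can be background, so that a change against it is only that of the measured signals. Whole larvae mix all tissues, and fewer cells of a type cannot be told apart from less RNA per cell.

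The study used these arrays to ask whether defense genes other than the antifungal peptide gene Drs are induced by pinching. The genes described here lie outside a list of immune peptide genes and a list of cuticle and chitin genes. Membership went by gene symbol, so numbered genes with such roles can remain among those described. The 3rd instar is the main feeding stage of the larva. Its fat body, an organ with the roles of liver and adipose tissue, turns dietary sugar into triglyceride and glycogen, and insulin-like peptides and the kinase complex TORC1 tie growth, protein synthesis and mitochondrial activity to food. When TORC1 is low, autophagy encloses parts of the cell in membranes and delivers them to lysosomes for breakdown.

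Of the 18769 probe sets, 790 were higher after pinching (4.21%) and 937 were lower (4.99%) at an adjusted p below 0.05 in limma, which is what "called", "rose" and "fell" mean below. The pinching and untreated values overlapped in 2 of the 790 and in 3 of the 937, so groups that lie apart add no support to a call. With 1 probe set for each of the 11981 genes named by a probe set of their own, 669 genes rose (5.58%) and 791 fell (6.6%), and the median change over all genes was 0.01. The immune and cuticle lists held 27 of the genes that rose and 35 of those that fell, which left 642 and 756 outside them. The 3 arrays of a group carry replicate numbers that went together across groups, and with the number as a block 1426 probe sets were higher and 1645 lower. Single arrays moved these counts by more than 1.5 times. Without pinching replicate 2 there were 443 higher and 545 lower, without untreated replicate 1 there were 465 and 433, and without untreated replicate 3 there were 418 and 373. In the direct comparison of the pinching and clean injury arrays limma called no probe set higher (0%) and 1 lower (0.00533%), with 107 higher and 205 lower at an unadjusted p under 0.05. Among the 395 probe sets chosen for naming, called or not, the difference between pinching and clean injury ran between -1.45 for CtsL3, a cathepsin L-like gene, and 0.75 for Lip3, a lipase gene, and the smallest adjusted p was 0.422 (Cyp6a8, a cytochrome P450 gene, at -1.03). Values that miss the threshold do not show that the 2 injuries act alike.

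**Figure D1:**
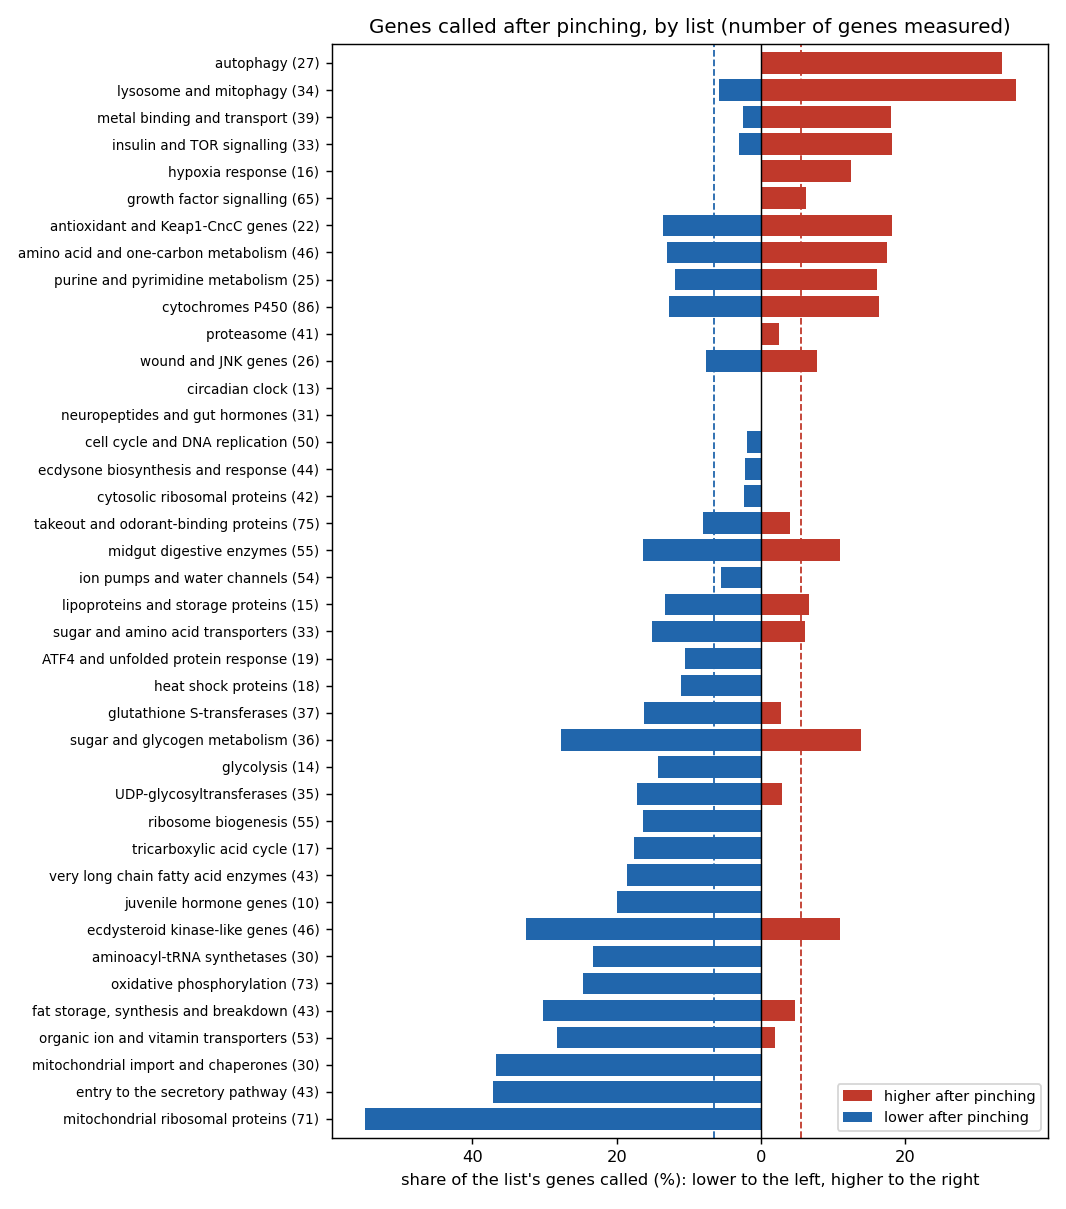
Share of the genes of each list that were called higher (red, to the right) or lower (blue, to the left) after pinching, in percent of the genes measured in the list, whose number stands in parentheses. Dashed lines mark the shares over all 11981 genes, 5.58% higher and 6.6% lower. Autophagy and lysosome genes head the list, and mitochondrial ribosomal proteins stand at its foot with 39 of 71 genes lower. The lysosome, mitochondrial import and very long chain fatty acid lists were gathered after the values had been seen. Their shares and places were thus open to choice.

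Of 43 genes of fat storage, synthesis and breakdown, 13 fell (30.2%), 2 rose (4.65%) and 28 were not called, with a median change of -0.28. The share of rises lies near the 5.58% over all genes. ACC, which encodes acetyl-CoA carboxylase, the enzyme that makes malonyl-CoA for fatty acid synthesis, stood at 7.82, 7.47 and 8.37 after pinching, against 10.43, 9.57 and 9.96 in untreated larvae. The change of ACC was -2.10 ± 0.30 (SE, n = 3 arrays each; adjusted p = 0.00227), a 4.29-fold fall. FASN1, the fatty acid synthase that uses malonyl-CoA, read 11.37, 11.22 and 11.70 in pinched larvae and 12.73, 12.69 and 12.90 in untreated larvae (change -1.34, adjusted p = 0.00127). FASN2 and FASN3, the related synthase genes, were not called, at -0.46 (adjusted p = 0.284) and 0.12 (adjusted p = 0.738). AcCoAS, the synthetase that makes acetyl-CoA out of acetate, read 9.35, 9.43 and 9.83 in pinched larvae and 11.34, 11.36 and 11.27 in untreated larvae (change -1.79, adjusted p = 6.51e-05). For ACC, FASN1 and AcCoAS every pinching array lay below every untreated array, as for nearly all probe sets called lower. Gpdh1, whose product makes the glycerol 3-phosphate on which triglyceride is built, is counted with the sugar genes and also fell. It averaged 9.59 ± 0.45 in pinched larvae and 11.48 ± 0.11 in untreated larvae (SD, n = 3 arrays each; change -1.90, adjusted p = 0.00121), and its 3 other probe sets fell by 0.88 to 1.57. Lsd-1, a perilipin on the surface of lipid droplets, fell by 0.82 (adjusted p = 0.00145), and the peroxisomal acyl-CoA oxidase gene Acox57D-d fell by 1.29 (adjusted p = 0.00746).

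The 2 genes of the list that rose were Lip3 and whd. Lip3 read 6.47, 7.48 and 7.34 after pinching and 3.51, 3.48 and 5.0 in untreated larvae, a rise of 3.10 ± 0.39 (SE; adjusted p = 0.00114). Its untreated replicates 1 and 2 lay below the array medians, and its 3 clean injury arrays averaged 6.34 ± 0.19 (SD). whd, the carnitine palmitoyltransferase that brings fatty acids into mitochondria for breakdown, was named after its values were seen. It read 9.09, 9.25 and 9.14 in pinched larvae and 8.34, 8.68 and 8.08 in untreated larvae (change 0.79, adjusted p = 0.00837), but its other probe set changed by -0.20 (adjusted p = 0.283). The triglyceride lipase gene bmm read 7.43, 7.51 and 7.29 in pinched larvae and 7.43, 7.76 and 6.96 in untreated larvae, values that overlapped (change 0.03, adjusted p = 0.938). Without pinching replicate 1, pinching replicate 2, untreated replicate 1 or untreated replicate 3, the 13 falls of the list became 7, 7, 7 and 6.

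Enzymes that lengthen, desaturate or reduce fatty acids to make the very long chains of surface lipids were gathered into a list of 43 genes after the values had been seen. Of these, 8 fell, none rose, and the median was -0.24. CG1441, a fatty acyl-CoA reductase gene, read 4.19, 4.14 and 4.57 in pinched larvae and 6.85, 5.42 and 7.09 in untreated larvae (change -2.15, adjusted p = 0.00687). The elongase genes bond and sit fell by 1.06 (adjusted p = 0.00276) and 1.47 (adjusted p = 0.0052). CG33110, a further elongase gene beside them on the chromosome and named after its values were seen, changed by -1.64 (adjusted p = 0.0232), and its call was lost without either of 2 pinching arrays (replicates 1 and 2) or 2 untreated arrays (replicates 1 and 3), with adjusted p between 0.0614 and 0.102. The desaturase gene CG8630 fell by 1.72 (adjusted p = 0.0109), but stood at an adjusted p of 0.0553 without untreated replicate 3. The same 4 arrays cut the count of 8 to 4, 4, 4 and 3.

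**Figure D2:**
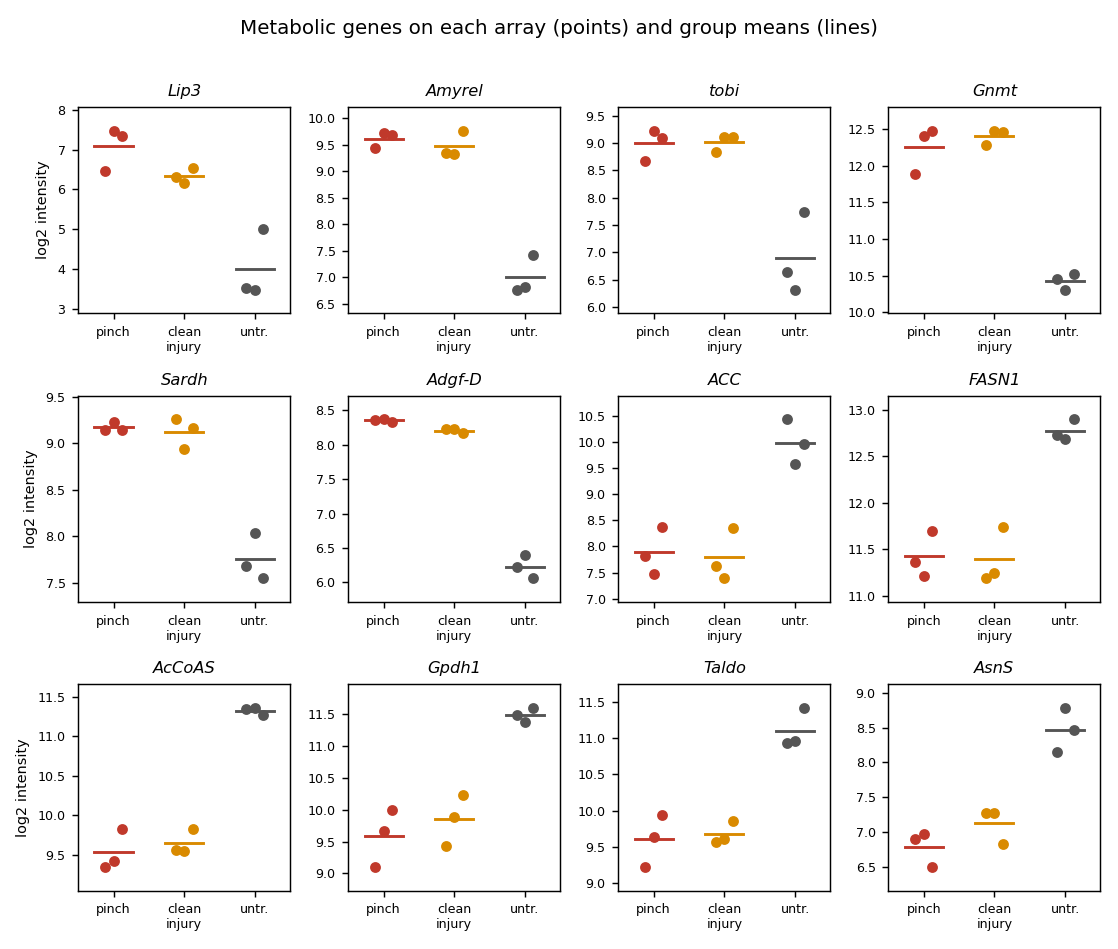
Log2 intensity of 12 metabolic genes on each array, with pinching on the left, clean injury in the middle and untreated on the right of each panel; points are arrays, lines are group means, and each panel has its own axis that does not start at 0. In every panel the 3 pinching points lie apart from the 3 untreated points, above them for Lip3, Amyrel, tobi, Gnmt, Sardh and Adgf-D and below them for ACC, FASN1, AcCoAS, Gpdh1, Taldo and AsnS. Nearly all called probe sets share such a gap.

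Sugar and glycogen genes moved both ways, with 5 of 36 higher and 10 lower and a median of -0.07. The rises were led by hydrolases. Amyrel, an amylase-related gene, read 9.45, 9.72 and 9.69 after pinching and 6.76, 6.81 and 7.42 in untreated larvae, a rise of 2.62 ± 0.19 (SE; adjusted p = 3.7e-05). Its pinching values spread over less than its untreated values. The alpha-glucosidase-like gene tobi, known as a target of insulin-producing and glucagon-like signals, read 8.68, 9.22 and 9.10 in pinched larvae and 6.64, 6.32 and 7.74 in untreated larvae (change 2.10, adjusted p = 0.0024). Sodh1, a sorbitol dehydrogenase gene, rose by 1.26 (adjusted p = 0.00359). Among the falls, Taldo, the transaldolase of the pentose phosphate pathway, read 9.22, 9.64 and 9.94 in pinched larvae and 10.92, 10.96 and 11.41 in untreated larvae (change -1.5, adjusted p = 0.00136). AGBE, which branches glycogen and was named after its values were seen, changed by -1.77 (adjusted p = 0.0086). In glycolysis 2 of 14 genes fell (14.3%) and none rose. Pgi fell by 0.66 (adjusted p = 0.00838) and Pfk by 0.82 (adjusted p = 0.0139). Pfk lost its call without pinching replicate 2 or untreated replicate 1 (adjusted p = 0.0582 and 0.0641). The 10 falls among sugar and glycogen genes became 6, 6 and 5 without pinching replicate 2, untreated replicate 1 and untreated replicate 3, and 6 of the 30 genes left without probe sets that can cross-hybridize.

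In amino acid and one-carbon metabolism 8 of 46 genes rose and 6 fell, around a median of -0.01. Gnmt and Sardh act one after the other: Gnmt moves a methyl group of S-adenosylmethionine onto glycine to make sarcosine, and Sardh turns sarcosine back into glycine. Gnmt read 11.89, 12.41 and 12.47 in pinched larvae and 10.46, 10.31 and 10.52 in untreated larvae, a 3.55-fold rise (change 1.83 ± 0.15, SE; adjusted p = 0.000115). Sardh read 9.15, 9.23 and 9.15 in pinched larvae and 7.68, 8.03 and 7.55 in untreated larvae (change 1.42, adjusted p = 0.000309). pug, an enzyme of the folate one-carbon pool, rose by 0.92 (adjusted p = 0.00537). hgo, which opens the ring of homogentisate in tyrosine breakdown, read 7.61, 8.28 and 8.46 after pinching and 5.83, 4.76 and 6.74 in untreated larvae (change 2.34, adjusted p = 0.00737). Its untreated arrays were spread over nearly 2 log2 units. That they all lay below the pinching arrays was a condition of the ranking by which hgo was named. Hpd and Faa, further genes of tyrosine breakdown, overlapped between groups and were not called, at 1.90 (adjusted p = 0.19) and 0.44 (adjusted p = 0.495). The falls held enzymes that build amino acids: AsnS, asparagine synthetase, read 6.89, 6.96 and 6.50 in pinched larvae and 8.16, 8.78 and 8.47 in untreated larvae (change -1.69, adjusted p = 0.000703), Gs2, a glutamine synthetase gene, fell by 0.95 (adjusted p = 0.00341), and Got2, a mitochondrial aspartate aminotransferase gene, fell by 0.96 (adjusted p = 0.00494). The count of 8 rises became 4, 4 and 5 without pinching replicate 2, untreated replicate 1 and untreated replicate 3. With the replicate block 11 genes of the list rose and 11 fell.

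Of 25 purine and pyrimidine genes 4 rose (16%) and 3 fell (12%). Adgf-D, a member of the secreted adenosine deaminase-related growth factors, read 8.37, 8.37 and 8.33 in pinched larvae and 6.22, 6.41 and 6.06 in untreated larvae (change 2.13 ± 0.11, SE; adjusted p = 2.77e-06). The 3 other genes that rose, Paics, Gart and Pfas, encode enzymes that build the purine ring. Further genes of purine synthesis were not called: Prat at -0.05 (adjusted p = 0.907), Prat2 at 0.53 (adjusted p = 0.209) and Adsl at 0.26 (adjusted p = 0.334). Paics read 10.62, 11.16 and 10.85 in pinched larvae and 9.40, 9.75 and 9.56 in untreated larvae (change 1.30, adjusted p = 0.0013), and Gart rose by 1.55 (adjusted p = 0.0034). Pfas rose by 0.90 (adjusted p = 0.0207) and lost its call without pinching replicate 2, untreated replicate 2 or untreated replicate 3 (adjusted p between 0.0585 and 0.075). The 3 falls were fewer in each of the 9 fits that left out 1 array, with 0, 1 or 2 in their place. They were 0 with only the 6 arrays compared, 1 with an intensity trend and robust prior, and 6 with the replicate block.

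Of 27 autophagy genes 9 rose, none fell and 18 were not called. Of the 27 changes 24 were positive, and the median was 0.44. The median level of the list was 7.21, 7.41 and 7.29 on the pinching arrays, against 7.07, 6.85 and 6.83 on the untreated arrays. Atg8a, whose product is bound to the autophagosome membrane, read 12.32, 12.40 and 12.27 in pinched larvae and 11.12, 11.57 and 10.97 in untreated larvae (change 1.11 ± 0.15, SE; adjusted p = 0.00162). ref(2)P, the cargo receptor that is itself consumed by autophagy, read 10.21, 10.19 and 10.12 in pinched larvae and 9.15, 9.27 and 8.85 in untreated larvae (change 1.08, adjusted p = 0.000708). Atg18a, which acts as the membrane forms, rose by 0.91 (adjusted p = 0.00101). Clean injury, set against the same untreated arrays, gave a list median of 0.45.

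Lysosomal genes, gathered after the values had been seen together with receptors of mitophagy, stood beside them: 12 of 34 rose and 2 fell, with a median of 0.23. CtsL1, the protease cathepsin L, read 11.99, 12.16 and 11.94 in pinched larvae and 10.32, 10.77 and 10.44 in untreated larvae, a 2.88-fold rise (change 1.52 ± 0.13, SE; adjusted p = 0.000123). The protease genes CtsF and cathD rose by 1.14 (adjusted p = 0.00136) and 1.02 (adjusted p = 0.00537). Lerp, the receptor that sorts enzymes to lysosomes, read 10.24, 10.39 and 10.09 in pinched larvae and 8.63, 9.33 and 8.48 in untreated larvae (change 1.43, adjusted p = 0.00189), and the thioesterase gene Ppt2 rose by 1.19 (adjusted p = 0.000669). BNIP3, a receptor that marks mitochondria for autophagy, read 11.13, 11.58 and 11.21 in pinched larvae and 9.39, 10.43 and 9.68 in untreated larvae (change 1.48, adjusted p = 0.00523). Over the fits that left out 1 array, between 6 and 13 autophagy genes and between 10 and 13 genes of the lysosome list rose.

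Of 33 genes of insulin and TOR signalling 6 rose (18.2%) and 1 fell (3.03%). The rises included chico, the insulin receptor substrate gene, by 0.54 (adjusted p = 0.0283), Gbp2 by 0.55 (adjusted p = 0.0384) and Sesn by 0.55 (adjusted p = 0.0398). ImpL2, an insulin antagonist gene, was the fall, by 0.53 (adjusted p = 0.0319). The calls of chico, Gbp2, Sesn and ImpL2 were each lost without pinching replicate 3 or untreated replicate 3, among other arrays. REPTOR-BP encodes the partner of the transcription factor REPTOR, which TORC1 holds back. It read 8.71, 9.04 and 9.09 in pinched larvae and 7.43, 8.04 and 7.04 in untreated larvae (change 1.45, adjusted p = 0.00276). unk, a zinc finger gene that acts downstream of TOR in neurons, rose by 0.99 (adjusted p = 0.0255), but its second probe set, at a change of 1.06, had an adjusted p of 0.136, and the call was lost without pinching replicate 2, pinching replicate 3, untreated replicate 1 or untreated replicate 3 (adjusted p between 0.0655 and 0.1). The count of 6 was 3, 2, 1, 2 and 1 without clean injury replicate 2, pinching replicate 2, pinching replicate 3, untreated replicate 1 and untreated replicate 3, 1 with only the 6 arrays compared, and 10 with the replicate block. In growth factor signalling (the EGF, TGF-beta, Notch, Wnt, Hedgehog and Hippo pathways) 4 of 65 genes rose, a share near that over all genes, and 52 of the 65 changes were positive with a median of 0.25. None was called without pinching replicate 2, untreated replicate 1 or untreated replicate 3 or with only the 6 arrays compared, between 1 and 2 were called without a clean injury array, and 13 rose with the replicate block.

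Of 71 genes of the mitochondrial ribosome 39 fell, none rose and 32 were not called. All 71 changes were negative, and the median was -0.66. The median level of the list was 6.96, 7.20 and 7.42 on the pinching arrays and 7.91, 7.51 and 8.02 on the untreated arrays, so that untreated replicate 2 lay closest to the pinched larvae. mRpL20 read 6.61, 6.74 and 6.99 in pinched larvae and 8.02, 7.59 and 8.13 in untreated larvae (change -1.13 ± 0.16, SE; adjusted p = 0.00181). mRpL14 fell by 1.07 (adjusted p = 0.00477) and mRpS35 by 1.11 (adjusted p = 0.00706). The count depended on single arrays: 16, 15, 9 and 9 genes were called without pinching replicate 1, pinching replicate 2, untreated replicate 1 and untreated replicate 3, and 16 when only the 6 arrays compared were fitted. With the replicate block it was 58. The 42 genes listed as cytosolic ribosomal proteins, which share their role in translation but not their compartment, had a median of 0.07. None was higher and 1 was lower, RpLP0-like (change -0.81, adjusted p = 0.0346). That gene, named for its likeness to RpLP0 and not as a subunit, averaged 6.80 over the 9 arrays, against a median level of 12.87 for the list. RpL32, a common internal control, read 13.25, 13.36 and 13.40 in pinched larvae and 13.27, 13.24 and 13.25 in untreated larvae.

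The medians of other mitochondrial lists lay below 0 as well. Of 73 genes of oxidative phosphorylation 18 fell and none rose (median -0.45). UQCR-6.4 and ox, both subunits of complex III, fell by 0.78 (adjusted p = 0.0106) and 0.77 (adjusted p = 0.0119), and the ATP synthase subunit gene ATPsynF fell by 0.59 (adjusted p = 0.0194). Each of these calls was lost without at least 1 array: that of UQCR-6.4 without untreated replicate 3 (adjusted p = 0.0515), that of ox without pinching replicate 2 (adjusted p = 0.0519), and that of ATPsynF without pinching replicate 2, untreated replicate 1 or untreated replicate 3 (adjusted p between 0.0662 and 0.0814). The count of 18 was 11 without clean injury replicate 1, 4 without pinching replicate 1, 1 without pinching replicate 2, 41 without pinching replicate 3, 2 without untreated replicate 1 and 1 without untreated replicate 3, and it was 7 with only the 6 arrays compared and 49 with the replicate block. Among 30 genes of protein import into mitochondria and its chaperones, gathered after the values had been seen, 11 fell and none rose (median -0.48). Tim8, a chaperone of the intermembrane space, read 8.26, 8.41 and 8.36 in pinched larvae and 9.65, 9.15 and 9.65 in untreated larvae (change -1.14, adjusted p = 0.00145). Tom40, the pore of the outer membrane, fell by 0.98 (adjusted p = 0.00647), and the prohibitin genes Phb1 and Phb2 fell by 0.90 (adjusted p = 0.00795) and 0.97 (adjusted p = 0.00364). The 11 falls became 7, 4 and 4 without pinching replicate 2, untreated replicate 1 and untreated replicate 3, and 6 with only the 6 arrays compared. In the tricarboxylic acid cycle list, which also held malic enzyme genes, 3 of 17 genes fell (median -0.40). There were 6 falls without pinching replicate 3, 5 without the dimmest 40% of probe sets and 9 with the replicate block. The malic enzyme genes Men-b and Men, which lie outside the cycle itself, fell by 0.89 (adjusted p = 0.00173) and 0.88 (adjusted p = 0.00364). SdhC, a succinate dehydrogenase subunit gene, fell by 0.66 (adjusted p = 0.0135). Its call was lost without pinching replicate 2, untreated replicate 1 or untreated replicate 3 (adjusted p between 0.052 and 0.0603). Muscle markers, of a tissue rich in mitochondria, had 1 fall among 22 genes (4 with the replicate block), with 19 of the 22 changes negative and a median of -0.21. Their median level was 10.75, 10.92 and 11.05 on the pinching arrays and 10.61, 11.27 and 11.15 on the untreated arrays, and their part in the mitochondrial falls was not tested. Sirup, an assembly factor of succinate dehydrogenase named after its values were seen, rose, at 10.70, 10.72 and 11.18 in pinched larvae and 9.20, 9.68 and 8.61 in untreated larvae (change 1.70, adjusted p = 0.002).

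**Figure D3:**
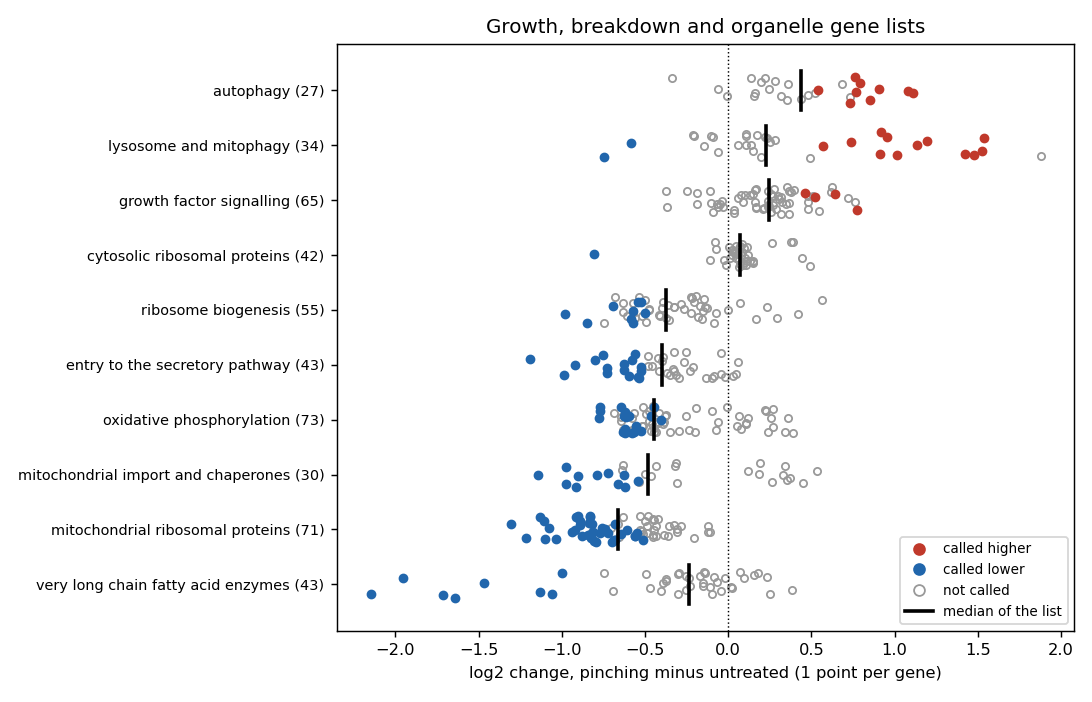
Change of each gene (log2, pinching minus untreated) in 10 lists, with called genes filled in red (higher) or blue (lower), genes not called as open circles and the median of each list as a black bar; the number of genes stands in parentheses and the vertical scatter within a row has no meaning. Mitochondrial ribosomal proteins all lie below 0 (median -0.66), cytosolic ribosomal proteins lie mostly close to 0 (median 0.07), and autophagy genes lie mostly above 0 (median 0.44). The lysosome, mitochondrial import and very long chain fatty acid lists were gathered after the values had been seen.

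Of 43 genes of the entry to the secretory pathway, through which secreted and membrane proteins leave the cytosol, 16 fell, none rose and 27 were not called. The median was -0.40, and 3 changes were positive. All 3 subunits of the Sec61 channel fell. Sec61gamma read 9.77, 10.17 and 9.93 in pinched larvae and 11.12, 10.93 and 11.38 in untreated larvae (change -1.19 ± 0.14, SE; adjusted p = 0.000936), Sec61beta fell by 0.99 (adjusted p = 0.00109) and Sec61alpha by 0.92 (adjusted p = 0.00221). Without untreated replicate 1 and untreated replicate 3 the list held 10 and 6 falls, and with only the 6 arrays compared 10. In ribosome biogenesis 9 of 55 genes fell and none rose (median -0.37). NHP2, part of the particles that modify ribosomal RNA, fell by 0.98 (adjusted p = 0.0126), a call lost without untreated replicate 3 (adjusted p = 0.0559). Over fits that left out 1 array the count of 9 was 1 (untreated replicate 3) to 18 (untreated replicate 2), with 4, 5, 4 and 3 without clean injury replicate 2, pinching replicate 1, pinching replicate 3 and untreated replicate 1, 4 with only the 6 arrays compared and 17 with the replicate block. It was 19 with quantile normalization, 16 with each array centred on its median and 14 without the dimmest 40% of probe sets. Of 30 aminoacyl-tRNA synthetases, which load amino acids onto tRNA, 7 fell. None did without untreated replicate 1 or untreated replicate 3 or with only the 6 arrays compared, 2 did without pinching replicate 1, 3 without pinching replicate 2 and 12 with the replicate block. Of 50 cell cycle and DNA replication genes 1 fell and none rose (median 0.00), and of 41 proteasome genes 1 rose, while 40 of the 41 changes were positive (median 0.30).

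Transporters of organic ions, drugs and vitamins fell more often than they rose, with 15 of 53 lower, 1 higher and a median of -0.31. Smvt, the sodium-dependent transporter of biotin and related vitamins, read 3.84, 4.39 and 5.09 in pinched larvae and 7.83, 7.82 and 8.15 in untreated larvae, a change of -3.49 ± 0.28 (SE; adjusted p = 6.51e-05). Pinching replicates 1 and 2 lay below the array medians, where a signal can be background. The ABC transporter genes Mdr50 and Mrp5 changed less but with close arrays: Mdr50 read 7.0, 6.95 and 7.03 in pinched larvae and 7.95, 7.88 and 8.25 in untreated larvae (change -1.03, adjusted p = 0.00076), and Mrp5 fell by 0.91 (adjusted p = 0.000429). Picot, of a family of phosphate and organic anion cotransporters, fell by 1.10 (adjusted p = 0.00137), and the organic anion transporter gene Oatp33Ea fell by 0.65 (adjusted p = 0.00382). The 15 falls became 9 and 8 without untreated replicate 1 and untreated replicate 3. Among 33 sugar and amino acid transporters 2 rose (6.06%, near the 5.58% over all genes) and 5 fell (15.2%, against 6.6%). The 2 rises were 0 without pinching replicate 2, untreated replicate 1 or untreated replicate 3 and 4 without pinching replicate 1. The 5 falls were 3 without pinching replicate 1, pinching replicate 2 or untreated replicate 1, 2 of the 19 genes left without probe sets that can cross-hybridize, and 8 with the replicate block. The amino acid transporter gene mnd read 6.11, 6.50 and 6.23 in pinched larvae and 7.26, 7.32 and 7.23 in untreated larvae (change -0.99, adjusted p = 0.00182), and NAAT1, a transporter of neutral amino acids, rose by 0.93 (adjusted p = 0.0146), a call lost without pinching replicate 2, untreated replicate 1 or untreated replicate 3 (adjusted p between 0.0563 and 0.07).

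Of 39 metal binding and transport genes 7 rose (17.9%), 1 fell (2.56%) and 31 were not called, with a median of 0.08. Without probe sets that can cross-hybridize, 4 of the 32 genes left rose. The metallothionein genes did not move alike. MtnD read 10.60, 10.59 and 9.92 in pinched larvae and 8.29, 7.87 and 8.46 in untreated larvae (change 2.17 ± 0.23, SE; adjusted p = 0.000419), and MtnB read 8.13, 8.0 and 7.52 in pinched larvae and 6.27, 6.51 and 6.36 in untreated larvae (change 1.5, adjusted p = 0.0013). MtnA overlapped between groups at 12.44, 12.56 and 12.51 in pinched larvae and 12.39, 12.50 and 12.38 in untreated larvae (change 0.08, adjusted p = 0.667). Tsf1, the iron carrier transferrin of the hemolymph, rose by 1.26 on its brightest probe set (adjusted p = 0.000385), whereas its 2 other probe sets changed by 2.04 (adjusted p = 0.205) and -0.00 (adjusted p = 0.988), so that the gene's change rests on 1 of 3 probe sets. Fer2LCH, the light chain of the iron store ferritin, read 12.01, 12.08 and 11.94 in pinched larvae and 11.37, 11.52 and 11.45 in untreated larvae (change 0.56, adjusted p = 0.00591). The zinc transporter gene ZnT35C and the ZIP-family gene Zip99C rose by 0.82 (adjusted p = 0.00384) and 0.88 (adjusted p = 0.00771).

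Among enzymes that modify foreign and endogenous small molecules, 14 of 86 cytochromes P450 rose (16.3%) and 11 fell (12.8%). With the replicate block 19 rose and 19 fell. Cyp28d1 read 10.52, 11.19 and 11.37 in pinched larvae and 8.72, 8.73 and 9.23 in untreated larvae, a 4.38-fold rise (change 2.13, adjusted p = 0.000422). Cyp304a1, Cyp309a1, Cyp6g1 and Cyp4ac3 rose by 1.53, 1.47, 1.44 and 1.26, with adjusted p between 0.000725 and 0.00182. Cyp6a8 had the deepest fall of the P450 list, at 5.92, 6.35 and 6.19 in pinched larvae and 8.57, 8.45 and 8.89 in untreated larvae (change -2.48, adjusted p = 6.18e-05). The median of the P450 list was -0.04. Over the fits that left out 1 array, between 10 and 17 of its genes rose and between 8 and 16 fell. Conjugating enzymes were mostly on the lower side: 6 of 37 glutathione S-transferases fell and 1 rose, and 6 of 35 UDP-glycosyltransferases fell and 1 rose. The transferase that rose, GstT4, read 10.87, 11.09 and 11.16 in pinched larvae and 9.36, 9.94 and 9.53 in untreated larvae (change 1.43, adjusted p = 0.000509), while GstE5 fell by 1.23 (adjusted p = 0.00491) and Ugt37C2 by 1.69 (adjusted p = 0.00347). The falls among glutathione S-transferases were 2, 2 and 1 without pinching replicate 2, untreated replicate 1 and untreated replicate 3 and 14 with the replicate block. Those among UDP-glycosyltransferases were 3 without untreated replicate 1 and 3 without untreated replicate 3. Srx, sulfiredoxin, which restores overoxidized peroxiredoxins, was named after its values were seen. It read 10.08, 10.26 and 10.10 in pinched larvae and 7.88, 8.12 and 8.05 in untreated larvae (change 2.13, adjusted p = 5.64e-06).

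The ecdysteroid kinase-like genes, a family named for enzymes that add phosphate to steroid hormones in other insects, included CG10560, which had the deepest fall of all called probe sets with 1 gene name outside the immune and cuticle lists. Of its 46 measured members 15 fell, 5 rose and the median was -0.48. CG10560 read 3.91, 4.47 and 4.54 in pinched larvae and 9.12, 9.39 and 9.69 in untreated larvae, a change of -5.09 ± 0.20 (SE; adjusted p = 3.64e-07). Its pinching values lie below the array medians, where a signal can be background. CG11892 read 8.33, 8.53 and 8.07 in pinched larvae and 10.08, 10.19 and 9.96 in untreated larvae (change -1.77, adjusted p = 0.000188). CG11891, CG32195 and CG31087 fell by 1.99, 1.69 and 1.31, with adjusted p between 0.00026 and 0.000658. CG31102, a member that rose, read 7.05, 6.99 and 7.12 in pinched larvae and 6.43, 6.44 and 6.36 in untreated larvae (change 0.64, adjusted p = 0.00264). The 15 falls became 9 without untreated replicate 3. The 5 rises were 3 without clean injury replicate 2 or untreated replicate 2 and 2 without pinching replicate 2, pinching replicate 3, untreated replicate 1 or untreated replicate 3.

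**Figure D4:**
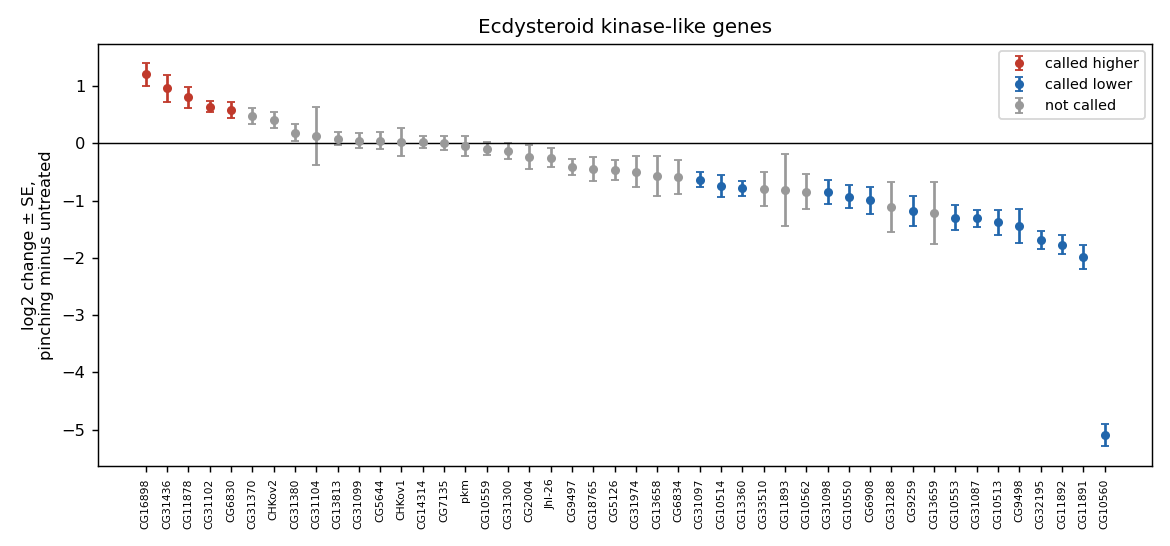
Change of each of the 46 ecdysteroid kinase-like genes (log2, pinching minus untreated, with SE) in order of size, with the 5 called higher in red, the 15 called lower in blue and the others in grey. CG10560 lies at -5.09, apart from the other members, which lie between -1.99 and 1.20.

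Of 44 genes of ecdysone synthesis and response 1 fell (2.27%) and none rose, with 2 higher under quantile normalization, 2 higher without untreated replicate 2, 2 lower without pinching replicate 3, and 4 higher and 2 lower with the replicate block. The gene that fell was Hr38, a nuclear receptor gene, at 2.88, 3.79 and 3.69 in pinched larvae and 4.50, 5.33 and 5.67 in untreated larvae (change -1.72, adjusted p = 0.0179), a call lost without pinching replicate 1 or untreated replicate 3 (adjusted p = 0.054 and 0.082), and its other probe set changed by -0.35 (adjusted p = 0.188). Of 10 juvenile hormone genes 2 fell (20%, against 6.6% over all genes) and none rose, and 1 fell in each of the 9 fits that left out 1 array. Jhe, the esterase that breaks down juvenile hormone, read 4.15, 4.69 and 4.74 in pinched larvae and 5.93, 5.85 and 5.79 in untreated larvae (change -1.33, adjusted p = 0.000981). None of 31 neuropeptide and gut hormone genes was called in limma, with 2 higher and 6 lower at an unadjusted p under 0.05. With the replicate block 2 were called higher and 3 lower. Carrier proteins of the odorant-binding and takeout families, which bind small lipophilic molecules, held 6 falls (8%) and 3 rises (4%) among 75 genes. These shares lie near the 6.6% lower and 5.58% higher over all genes. Obp83g read 7.39, 8.05 and 8.41 in pinched larvae and 10.05, 9.46 and 10.28 in untreated larvae (change -1.98, adjusted p = 0.00174), Jhbp1 fell by 1.39 (adjusted p = 0.00687) and Obp99a by 0.67 (adjusted p = 0.00498). The 6 falls became 3 without clean injury replicate 2, pinching replicate 1, pinching replicate 2 or untreated replicate 3, and 10 with the replicate block.

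Genes known only by a number made up 5289 of the 11981 genes, and 288 of them rose (5.45%) and 350 fell (6.62%). CG33462, a serine protease-like gene, had the largest measured rise of called probe sets with 1 gene name outside the immune and cuticle lists, at 7.49, 8.39 and 7.28 in pinched larvae and 3.49, 3.31 and 3.51 in untreated larvae, a change of 4.29 ± 0.28 (SE; adjusted p = 1.93e-05). Its untreated values lie below the array medians, where a signal can be background. Its 3 clean injury arrays averaged 8.65 ± 0.44 (SD). CG12506 read 6.75, 6.66 and 8.03 in pinched larvae and 3.76, 3.19 and 5.24 in untreated larvae (change 3.08, adjusted p = 0.00565), with replicate 3 the highest in both groups. CG4716 carried 2 probe sets that both rose, by 2.90 (adjusted p = 0.0011) and 2.73 (adjusted p = 0.00336). CG14852 read 10.27, 10.07 and 9.45 in pinched larvae and 7.35, 8.29 and 5.90 in untreated larvae (change 2.75, adjusted p = 0.00641). Further rises were those of CG8160 (2.97, adjusted p = 0.00364), CG5550 (2.80, adjusted p = 0.00148), CG14219 (2.55, adjusted p = 0.00309) and CG15043 (2.42, adjusted p = 0.000393).

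Further numbered genes rose by 2.23 to 2.42. CG32302 read 11.39, 11.57 and 11.16 in pinched larvae and 9.03, 9.16 and 9.02 in untreated larvae (change 2.30, adjusted p = 1.21e-05). CG6271, which encodes a lipase of the pancreatic family, read 7.98, 7.92 and 7.84 in pinched larvae and 5.39, 5.65 and 5.60 in untreated larvae (change 2.37, adjusted p = 1.93e-05). CG13461 rose by 2.23 (adjusted p = 6.16e-06) and CG7248 by 2.42 (adjusted p = 1.93e-05). CG9928, CG30026 and CG12951 rose by 2.29, 2.25 and 2.25, with adjusted p between 6.61e-05 and 0.00497. Sid, a nuclease gene that has a name, stood among these rises at 8.03, 8.68 and 7.45 in pinched larvae and 4.87, 5.47 and 6.04 in untreated larvae (change 2.59, adjusted p = 0.00162).

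Falls of numbered genes reached similar sizes. CG4830, which encodes an enzyme of the acyl-CoA synthetase family, read 5.92, 6.68 and 7.07 in pinched larvae and 9.78, 9.36 and 9.40 in untreated larvae, a 7.75-fold fall (change -2.95 ± 0.25, SE; adjusted p = 0.000115), and CG4563, of the same enzyme family, read 6.45, 6.91 and 6.71 in pinched larvae and 9.02, 8.92 and 8.62 in untreated larvae (change -2.17, adjusted p = 2.47e-05). CG31272 read 4.77, 5.37 and 4.17 in pinched larvae and 7.60, 7.58 and 7.74 in untreated larvae (change -2.87, adjusted p = 0.000351). Here the spread lay in the pinched larvae. CG5892 fell by 2.57 (adjusted p = 6.61e-05) and CG3106 by 2.20 (adjusted p = 0.0013). A second set of falls had an untreated replicate 2 below the other untreated arrays. CG13705 read 8.39, 8.02 and 9.67 in pinched larvae and 12.05, 10.64 and 12.35 in untreated larvae (change -2.98, adjusted p = 0.00675), and CG15515 read 7.75, 8.22 and 9.10 in pinched larvae and 11.46, 10.26 and 11.53 in untreated larvae (change -2.73, adjusted p = 0.00429). CG10953 fell on both of its probe sets, by 2.89 (adjusted p = 0.000739) and 2.34 (adjusted p = 0.00159). CG32603 fell by 2.11 (adjusted p = 0.0139) and lost its call without pinching replicate 2, untreated replicate 1 or untreated replicate 3 (adjusted p between 0.0587 and 0.0682).

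**Figure D5:**
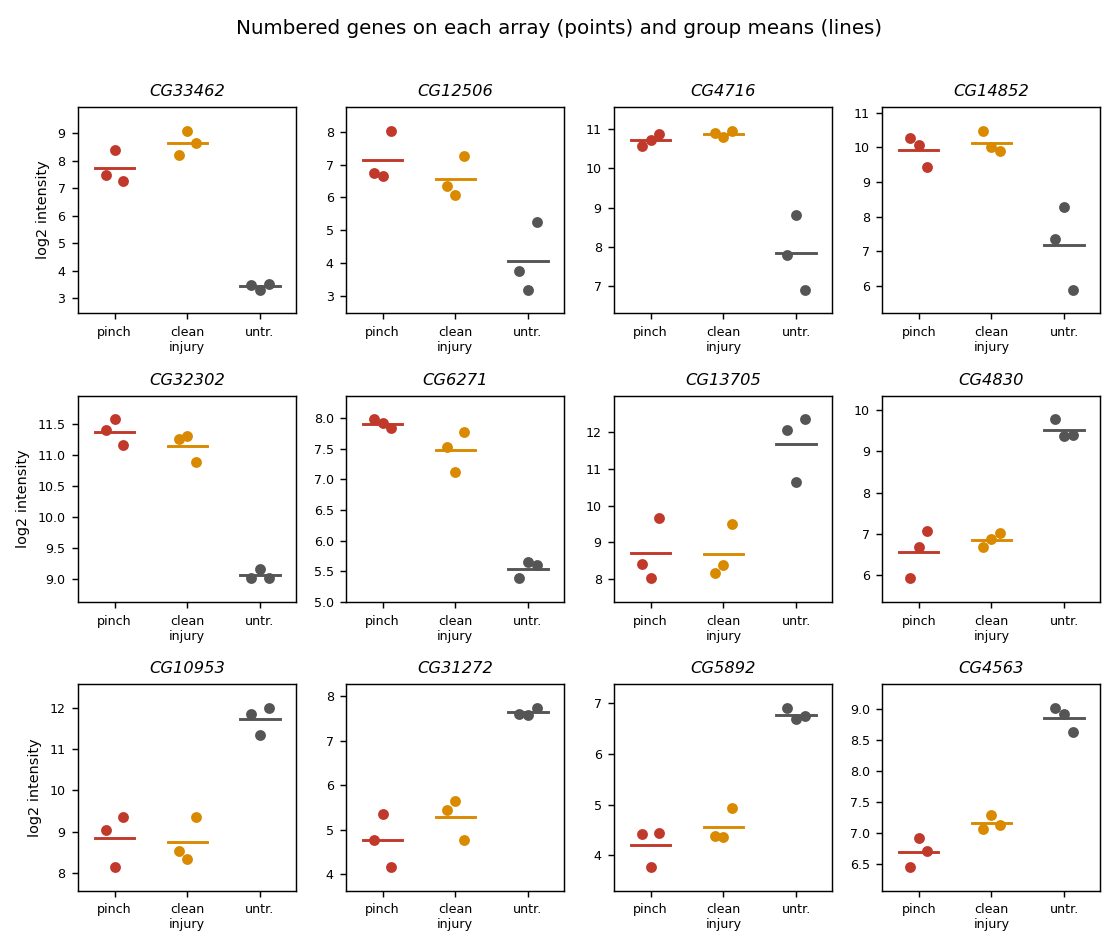
Log2 intensity of 12 genes known by a number on each array, with pinching on the left, clean injury in the middle and untreated on the right of each panel; points are arrays, lines are group means, and each panel has its own axis that does not start at 0. CG33462, CG12506, CG4716, CG14852, CG32302 and CG6271 lie higher after pinching, CG13705, CG4830, CG10953, CG31272, CG5892 and CG4563 lie lower. Groups that did not overlap were a condition for choosing these genes.

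Neighbouring genes in the RefSeq annotation (Release 6 plus ISO1 MT) in places moved together. There were 24 runs of 3 or more measured genes in a row that were all called in 1 direction, tabulated after the values had been seen. The 24 include rows of immune peptide genes and of cuticle genes. Over all genes 5.58% rose and 6.6% fell, and how many runs such shares give without any link between neighbours was not worked out. Several runs joined numbered genes of 1 protein family. On 3R the elongase genes bond, sit and CG33110 stood in a row, with changes of -1.06, -1.47 and -1.64. A row of 4 genes of the sugar transporter family on 2L, CG33281, CG33282, CG3285 and CG15408, fell by 1.68, 1.22, 1.17 and 0.88. Zinc carboxypeptidase genes in a row on 3L, CG8563, CG32379, CG8562 and CG18417, fell by 0.45, 0.81, 1.67 and 0.89. Aminopeptidase genes formed 2 rows on 3R: CG8773, CG8774 and CG32473 fell by 0.74, 1.12 and 0.74, and CG5849, CG31233 and CG31198 fell by 0.83, 1.97 and 1.17. The ecdysteroid kinase-like genes CG10513, CG10514 and CG11892 fell by 1.38, 0.74 and 1.77. Both genes CG9396 and CG9399, which encode proteins of the mitochondrial pyruvate carrier family, fell within a row: CG9396 read 5.86, 6.53 and 7.63 in pinched larvae and 8.83, 8.49 and 9.05 in untreated larvae (change -2.12, adjusted p = 0.0117), and CG9399 changed by -1.80 (adjusted p = 0.011), with adjusted p of 0.0578 and 0.0545 without untreated replicate 3. A row of 3 Kunitz-type protease inhibitor genes on 2L, CG16704, CG3513 and CG16713, rose by 0.90, 2.06 and 1.20. Genes of 1 family can share probe sequence, and cross-hybridization among them was not tested gene by gene.

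Marker lists of tissues were checked because whole larvae were used. Beside the muscle markers given above, 4 lists had medians between -0.02 and 0.21 and 0 to 2 calls in a direction. They were hemocyte (20 genes), nervous system (16), salivary gland (13), and male-biased RNA and germ line (16, median 0.21). Of the hemocyte markers atilla, a marker of lamellocytes, rose by 0.65 (adjusted p = 0.00733), while the collagen genes vkg and Col4a1, which fat body also expresses, fell by 1.14 (adjusted p = 0.0145) and 0.93 (adjusted p = 0.0384). Both collagen calls were lost without pinching replicate 2, untreated replicate 1 or untreated replicate 3, and that of Col4a1 also without pinching replicate 1 or clean injury replicate 1 (adjusted p between 0.0548 and 0.14 over both genes). Malpighian tubule markers were lower in 4 of 12 cases and higher in 1, with a median of -0.23: list medians were 6.74, 6.93 and 7.12 on the pinching arrays and 7.57, 7.40 and 7.51 on the untreated arrays. Alp4, an alkaline phosphatase of the tubule, read 6.87, 7.49 and 7.44 in pinched larvae and 8.79, 9.26 and 9.15 in untreated larvae (change -1.80, adjusted p = 0.000363). Tubules express many organic ion transporters, Picot among them, and the part of the tubule in the falls of that list was not tested. Of 55 midgut digestive enzymes 6 rose (10.9%), Lip3, Amyrel and cathD among them, and 9 fell (16.4%), with a median of 0.02. The gut trypsin gene lambdaTry read 6.86, 7.36 and 7.99 in pinched larvae and 8.85, 8.80 and 9.16 in untreated larvae (change -1.54, adjusted p = 0.00535), and thetaTry fell by 0.99 (adjusted p = 0.00435). The 9 falls became 5 without pinching replicate 1, 5 without untreated replicate 1 and 5 without untreated replicate 3.

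The remaining lists are read against 5.58% higher and 6.6% lower over all genes. Of 22 antioxidant genes 4 rose (18.2%) and 3 fell (13.6%). The rises were 2 without pinching replicate 2 and 1 without untreated replicate 3, and the falls were 6 with the replicate block. Of 16 hypoxia response genes 2 rose (12.5%), and none did without clean injury replicate 1, clean injury replicate 2, pinching replicate 2, pinching replicate 3, untreated replicate 1 or untreated replicate 3. Of 26 wound and JNK genes 2 rose (7.69%) and 2 fell (7.69%). The rises were 5 without pinching replicate 1, 3 without untreated replicate 2 and 0 without each of the 7 other arrays, and 7 with the replicate block, while the falls were 1 without pinching replicate 1 and 0 without untreated replicate 3. Of 19 genes of ATF4 and the unfolded protein response 2 fell (10.5%), AsnS among them, and 1 fell without clean injury replicate 2, pinching replicate 1, pinching replicate 3, untreated replicate 1 or untreated replicate 3. Of 15 lipoprotein and storage protein genes 1 rose (6.67%) and 2 fell (13.3%), with no fall without pinching replicate 1, pinching replicate 2, untreated replicate 1 or untreated replicate 3. Of 54 ion pump and water channel genes 3 fell (5.56%), with none without pinching replicate 1, pinching replicate 2 or untreated replicate 3 and 1 without clean injury replicate 2, untreated replicate 1 or untreated replicate 2. None of 13 circadian clock genes was called in limma, with 2 higher and 1 lower at an unadjusted p under 0.05. Of 18 heat shock protein genes 2 fell (11.1%) and none rose, while 13 of the 18 changes were positive. The falls were 0 without pinching replicate 3, untreated replicate 1 or untreated replicate 3, and 3 with the replicate block.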

How the data were processed

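Whole *y w* larvae gave the RNA for 9 arrays (Affymetrix Drosophila Genome 2.0), 3 a group. The authors deposited log2 values per probe set. Their normalization is not stated in what was read, and array medians ran between 4.94 and 5.08, so none was added. The labels call the arrays biological replicates without saying how larvae were divided, so p-values measure the spread between these samples. Of 18952 probe sets, 183 controls were left out and 18769 tested with limma 3.58.1 in R 4.3.3 (all 9 arrays in 1 fit, eBayes with 4.25 prior degrees of freedom, two-sided, Benjamini-Hochberg over all probe sets). The code was tested on simulated data. Python 3.11.15, pandas 2.3.3 and matplotlib 3.10.9 made the counts and plots.

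Names came from the platform table and RefSeq (13646 probe sets with 1 gene, 402 with several, 4721 with none). In a list, the brightest probe set (mean of 9 arrays) stands for its gene. The members and lists were chosen with earlier results of these data known, and CG13461 was taken out of the kinase-like list after values were seen, since its family was uncertain. Outside the immune and cuticle lists, the rule for naming took the 20 largest rises and falls among called probe sets whose groups did not overlap, the 15 largest each way among numbered genes, and of each list up to 6 called members by p and up to 4 not called. Of the 395 probe sets it gave, the text names a selection, made with their values in view. Lists had no set test.

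Same-numbered arrays of different groups deviated together (correlations 0.189 to 0.548 in 9 pairs, against -0.463 to 0.16 in 18 other pairs). This pairing comes from the data and not from the labels. The alternatives tried were the replicate block, other scalings, filters and priors, only the 6 arrays compared, each array left out, and the t-test of the methods.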

Additional observations from a re-analysis of the deposited data

How the results depend on the processing

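The 790 higher and 937 lower probe sets became 1426 and 1645 with the replicate block, 25 and 14 under the t-test of the methods after adjustment, 1633 and 1715 under it at an unadjusted p under 0.05, and 217 and 271 where at least a 2-fold change was also asked for. With only the 6 arrays compared, 579 were lower, and 578 higher, the second within 1.5 times of 790. Leaving out 1 array gave between 418 and 974 higher and between 373 and 1008 lower. Quantile normalization, centring, an intensity trend with a robust prior, and leaving out the dimmest 40% of probe sets or those that can cross-hybridize kept both counts within 1.5 times. The share of higher calls was 45.7%, 43.4% with quantile normalization and 40.7% with centring. These counts do not say which genes were called.

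Of the 126 genes tested by name, none changed the sign of a called value. The replicate block ended no call among them, and leaving out untreated replicate 3, pinching replicate 2 or untreated replicate 1 ended 14, 10 and 8. The adjusted t-test of the methods ended 116. Averaging the probe sets of a gene was done for list medians and not fitted. No detection calls were used, so a low signal can be background, and 3 arrays a group limit the precision.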
